A study of Mus musculus with 8 samples.

Results

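The genes described here encode the enzymes that attach glutathione, glucuronic acid or sulfate to small molecules: the soluble glutathione S-transferases (Gst), the microsomal glutathione S-transferases (Mgst), the UDP-glucuronosyltransferases (Ugt) and the cytosolic sulfotransferases (Sult). The Ugt3a genes, counted here with Ugt, transfer sugars other than glucuronic acid. They were chosen by symbol in the array's annotation, which gave 46 genes (20 Gst, 3 Mgst, 10 Ugt and 13 Sult) of the 18194 genes that have a probe set of their own, and 59 probe sets. Each gene was read through 1 probe set, the one with the highest mean over all arrays. Conjugation makes drugs, bilirubin, steroids, bile acids and reactive lipid products more soluble, so that they can leave the hepatocyte in bile or blood. Each reaction spends a co-substrate made in the same cell: glutathione, UDP-glucuronic acid or the sulfate donor PAPS. Many of these genes are switched on by xenobiotic and oxidative stress sensors, among them NRF2, the aryl hydrocarbon receptor, PXR and CAR, and several change their level around birth.

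RNA came from the livers of glycerol kinase knockout pups and of their age-matched wild-type littermates, 4 of each, all C57BL/6J, labelled male and killed on day 3 of life. Glycerol kinase phosphorylates glycerol, its gene is X-linked, and the knockout is a targeted disruption not limited to the liver. The design text says that day 3 was picked because hypoglycemia and acidosis are measurable by then. Each liver was hybridised to its own Affymetrix mouse expression array, and signal intensities were deposited on a linear scale.

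The level of the disrupted gene was not analysed here, since 0 probe sets could be named for it (by symbol, synonym or Entrez ID) through the annotation used, and so it does not check the labels. The array labelled wild type 4 went against its label as male: the X-inactivation RNA Xist read 10506 there against 196 to 396 elsewhere, while Eif2s3y, a Y-linked gene, read 1.3 against 685 to 1164. In both genotypes replicates 1 and 2 (here the first array set) differed from replicates 3 and 4 (the second) in the controls from which the sets were read. The 3' probe set of the spiked-in BioB transcript read 141 to 167 in the first set and 258 to 338 in the second. For the transferrin receptor a 3'/5' ratio of 6.50 to 6.72 stood against 4.21 to 4.83. The sets were defined by these values, so their separation there is no further evidence. Some controls not used for this overlapped: the 5' probe set of BioB (351 to 401 and 312 to 390.4), its middle probe set (494 to 713 and 646 to 932) and the actin 3'/5' ratio (1.25 to 1.74 and 1.21 to 1.26). The labels name no batch. The 3'/5' ratio of pyruvate carboxylase, a sign of RNA quality, was also not used to define the sets, and it did not overlap between them. It was 2.63 to 7.03 in the first set and 2.06 to 2.33 in the second. The ratio was highest in knockout 1 (7.03) and knockout 2 (4.93) and lay between 2.06 and 3.46 on the other arrays. Hepatocyte markers were bright, with the 11 of 12 on the array summing to 168862 to 219794 in wild type and 191587 to 270773 in the knockout. In the limma fit described below, 11 of 11 tested had a log2 fold change above 0 (median 0.11), and 0 had an adjusted p under 0.05. At an unadjusted p under 0.05, 4 were higher, beside 7.12% of all tested probe sets: Tdo2 (2.78), Tat (1.33), Hnf4a (0.73) and Cps1 (0.28). Erythroid markers, 7 of 10 on the array, summed to 43374.5 to 53601 and 37875 to 55536. In bulk liver, fewer cells of a type and less RNA per cell cannot be told apart. The number of arrays limits the precision.

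In the knockout liver the theta-class transferase Gstt2 read 2.01-fold lower, and it was the 1 gene of the 46 past the threshold (adjusted p = 0.0466, limma). That call was lost under 13 of 22 alternative fits, among them the one without wild type 4 (limma adjusted p = 0.111). Gstt3, of the same gene cluster, stood 2.44 times as high as in wild type and the mu-class Gstm7 1.98 times, with the knockout arrays of each above all wild-type arrays, and both fell short of the threshold. The other, dimmer probe set of Gstm7 did not show this difference (log2 fold change -0.07, with overlapping groups). The microsomal Mgst2 and the sulfotransferase Sult5a1 lay below wild type on all 4 knockout arrays, again short of it. The 6 tested Ugt genes had fold changes between -0.29 and 0.42 on the log2 scale. All of their groups overlapped, and of all tested probe sets 9.32% had groups that did not.

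Of the 46 genes, 33 reached a signal of 200 on at least 4 of the 8 arrays and were tested, with limma on log2(signal + 16) over 20395 probe sets. Fold changes are given on that log2 scale as knockout minus wild type, which understates changes of dim genes, and a gene was called at a Benjamini-Hochberg adjusted p under 0.05. By this rule 0 of the 33 were higher and 1 was lower, beside 0.299% of all probe sets tested in either direction (0.147% higher and 0.152% lower). Counted at unadjusted p under 0.05, 13 of the 33 differed (39.4%; 8 higher and 5 lower), beside 14.4% of all tested probe sets (7.12% higher and 7.32% lower) and 15.5% of the brightest probe sets of all named genes. The groups did not overlap for 5 of the 33 (2 higher and 3 lower, 15.2%), beside 9.32% of all tested probe sets (4.47% and 4.85%) and 10.3% of the brightest. These members were proposed with results of the same arrays in view, so the shares describe them and are not a test. The median fold change was 0.05 over the 33 and -0.03 over all tested probe sets, with 19 of the 33 above 0. By family it was 0.14 for Gst (18 tested, 12 above 0; 0.26 in the first array set and 0.03 in the second), -0.77 for Mgst (3 tested, 1 above 0), -0.01 for Ugt (6 tested, 3 above 0, and a median of 0.07 after median centring) and -0.11 for Sult (6 tested, 3 above 0). The members spread widely around these medians: the median size of a fold change, whatever its sign, was 0.29, beside 0.19 for all tested probe sets.

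**Figure D1:**
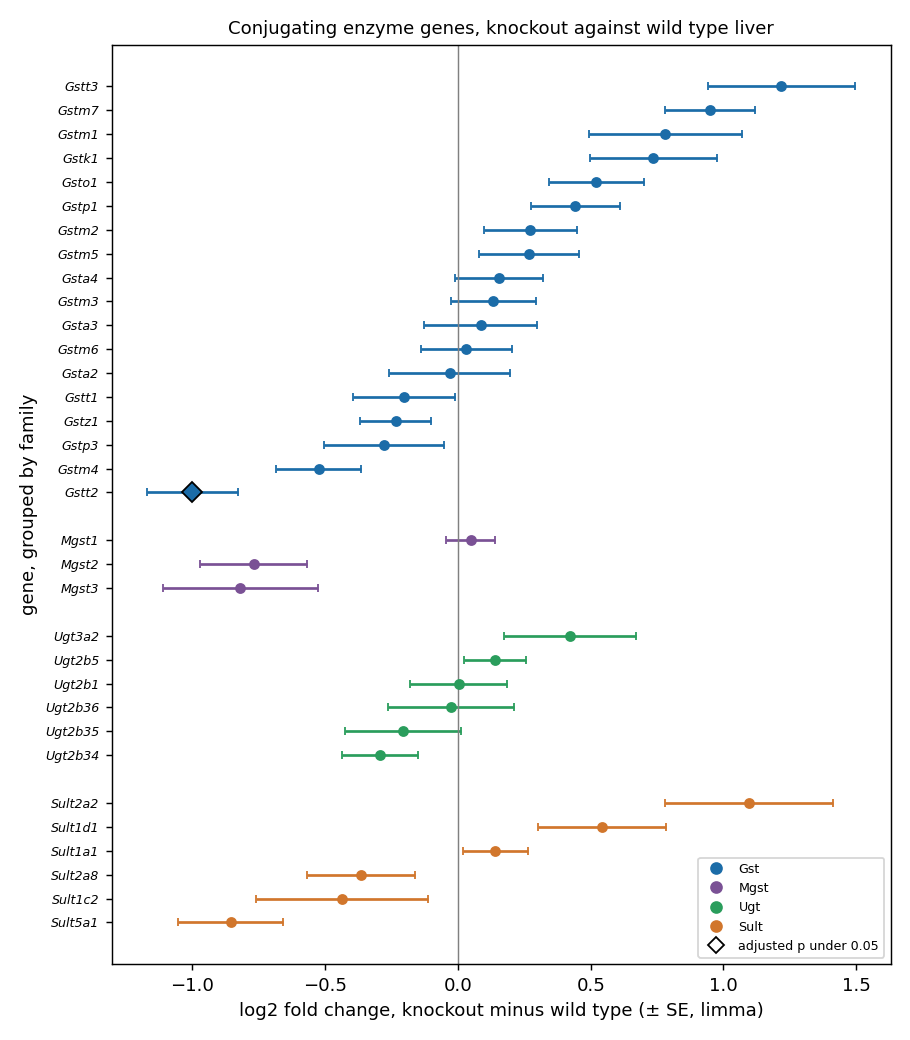
Log2 fold change (knockout minus wild type, ± SE from limma, 4 arrays a group) of the 33 tested genes, in 4 families sorted by size; the diamond marks an adjusted p under 0.05. Gstt3 at 1.22 and Gstt2 at -0.999 are the ends of the range, and the 6 Ugt genes lie between -0.29 and 0.42.

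The theta-class transferases act on small halogenated and epoxide substrates. In all that follows, signals are given for replicates 1 to 4 of each group. Gstt2 read 1656, 2290.4, 1949.8 and 2424 in wild type against 872, 1287, 1025 and 944 in the knockout, and the highest knockout array lay below the lowest wild-type array. Its means were 2079.9 ± 346 against 1032 ± 181 (SD, n = 4 each), a log2 fold change of -0.999 ± 0.17 (SE; adjusted p = 0.0466). Its difference was -0.87 and -1.13 within the first and second array set. Gstt2 passed the threshold without wild type 1 or knockout 4. It missed it without wild type 2, 3 or 4 (limma adjusted p = 0.173, 0.157 and 0.111) and without knockout 1, 2 or 3 (0.0872, 0.0809 and 0.147). Gstt3, of the same class, went the other way: it read 1028, 789, 693 and 1213 in wild type against 3474, 2517, 1590.2 and 1496 in the knockout, with no overlap and with knockout 1 and 2 the highest. The fold change was 1.22 ± 0.28 (SE; adjusted p = 0.0962), and 1.70 and 0.74 within the sets. It passed without knockout 4 (limma adjusted p = 0.0447), and also with the array set in the fit and wild type 4 left out (adjusted p = 0.0249), and missed under the other 20 of 22 alternatives (limma adjusted p up to 0.28). Gstt1, which lies next to Gstt3, read 3171, 4919.5, 4947 and 3398 in wild type against 3791, 4372, 2924 and 3069 in the knockout, with overlapping groups and a fold change of -0.20 ± 0.19 (SE; adjusted p = 0.675). Gstt4 was not tested, at 84.8 or below on every array. In the RefSeq gene order on chromosome 10 the class runs Gstt3, Gstt1, Gstt4, Gstt2 with no other protein-coding gene between them, so the genes with the largest positive and the largest negative fold change of the 33 stand at the ends of 1 cluster.

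The mu class, which conjugates electrophiles such as quinones and epoxides, was tested for all 7 genes on the array, and 0 were called (limma; 2 higher and 1 lower at an unadjusted p under 0.05, beside 7.12% and 7.32% of all tested probe sets). Gstm7 read 1465, 1595, 1695 and 1581 in wild type against 3787, 3548, 2932 and 2257 in the knockout. Wild type was tight and every knockout array lay above it, with knockout 4 the nearest. Its means were 1584 ± 94.1 against 3131 ± 685 (SD, n = 4 each) and its fold change 0.95 ± 0.17 (SE; adjusted p = 0.0515), with 1.25 and 0.65 in the sets. With the array set as a factor Gstm7 passed the threshold (limma adjusted p = 0.0359), as it did with the pyruvate carboxylase ratio as a covariate (0.0423) and without knockout 4 (0.0182). In all it passed under 7 of 22 alternatives and missed under 15, with adjusted p up to 0.192 there (limma), among them the fits without each other knockout array and without each wild-type array. The other probe set of Gstm7, dimmer, did not differ in this way: it read 645, 405, 446 and 388 in wild type against 510.4, 436, 417 and 403 in the knockout, a fold change of -0.07 ± 0.18 (SE). Gstm1, an abundant liver transferase, read 2834, 6259.6, 5849.9 and 4844 in wild type against 11915, 9913, 6796 and 5494 in the knockout, with wild type 1 lowest and knockout 1 and 2 highest. The groups overlapped through knockout 4 and wild type 2 and 3, and the fold change was 0.78 ± 0.29 (SE; adjusted p = 0.255), with 1.36 and 0.20 in the sets. The other 3 probe sets of Gstm1 stood at 0.93, 0.51 and 1.24, and the brightest is of a type (x_at) whose probes can bind related transcripts, so its paralogs may share in these values. Gstm4, in contrast, lay lower in the knockout: it read 719, 959, 894 and 814 in wild type against 511, 742, 584 and 512 in the knockout, overlapping through knockout 2, with a fold change of -0.52 ± 0.16 (SE; adjusted p = 0.182). Of the other mu genes, Gstm2 stood at 0.27, Gstm5, the brain and testis form, at 0.27, Gstm3 at 0.13 and Gstm6 at 0.03. On chromosome 3 the 7 genes are neighbours in the order Gstm5, Gstm7, Gstm6, Gstm3, Gstm2, Gstm1, Gstm4, and the values do not run along it: the 2 largest are separated by 3 genes between 0.03 and 0.27, and Gstm4 beside Gstm1 is of the opposite sign.

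**Figure D2:**
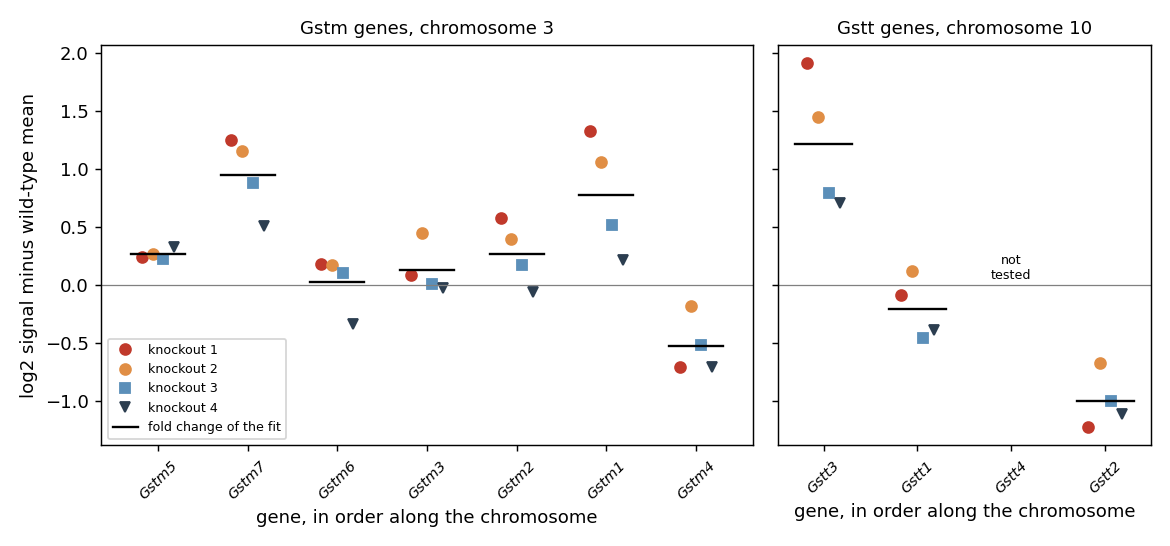
Log2 signal of each knockout array minus the wild-type mean (points, one for each of 4 arrays) for the Gstm genes of chromosome 3 and the Gstt genes of chromosome 10, in chromosomal order; the black line is the fold change of the fit. Knockout 1 lies farthest from 0 for Gstm7, Gstm1, Gstt3 and Gstt2, and Gstt4 was not tested.

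Glutathione transferase genes are textbook targets of NRF2, which binds the antioxidant response element, so promoter windows were searched for its core TGACNNNGC on both strands. The windows, from 250 bases before to 50 after an annotated start, came from RefSeq (GRCm38.p6) and covered 41 of the 46 genes with 53 starts. A match stood in 4 of the 41 genes (9.76%), beside 14.0% of all 27025 genes in that table. They are printed 5' to 3' on the gene's strand, with the match in capitals, because their fold changes run from near 0 to the third largest of the 33.
Gstm7: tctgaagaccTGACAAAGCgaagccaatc
Gstm5: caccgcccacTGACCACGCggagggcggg
Gsta3: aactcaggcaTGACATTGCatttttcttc
Mgst1: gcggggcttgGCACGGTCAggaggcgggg
The Gstm7 match, at chr3:107931725-107931753 (- strand), begins 129 bases before the downstream of its 2 annotated starts and 74 bases past the upstream one. That of Gstm5 lies at chr3:107895802-107895830 (+ strand) and begins 42 bases before the start, that of Gsta3 at chr1:21240454-21240482 (+ strand) 121 bases before it. In Mgst1 the match reads on the opposite strand, at chr6:138140461-138140489 (+ strand), and begins 56 bases before the start. Beside these matches the fold changes were 0.95 for Gstm7 (-0.07 in its dimmer probe set), 0.27 for Gstm5, 0.09 for Gsta3 and 0.05 for Mgst1. Gstm1 (0.78) and Gstt3 (1.22) had no match in their windows. The core of the aryl hydrocarbon receptor's site, GCGTG on either strand, stood in 9 of the 41 genes (22.0%), beside 35.2% of all genes in the table: Gsta2, Gstm1, Gstm5, Gstp1, Gstp3, Mgst3, Sult1b1, Sult1d1 and Sult2b1. In Gstm5 1 of the 2 GCGTG matches lies inside the TGACNNNGC match. A match is a run of letters and not a bound site.

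The remaining soluble classes held several genes with higher knockout signals, none of them called. Gstk1, the kappa-class enzyme of mitochondria and peroxisomes, read 1307, 1504, 1492 and 1347 in wild type against 3833, 2429, 2211 and 1502 in the knockout. Knockout 1 stood far above the rest, knockout 4 lay within wild type, and the fold change was 0.74 ± 0.24 (SE; adjusted p = 0.199); it passed without knockout 4 (limma adjusted p = 0.0479) and missed under the other 21 alternatives. Gsto1, the omega-class enzyme that reduces dehydroascorbate and mixed disulfides, read 4157, 4341, 4489 and 5665 in wild type against 8876, 4921, 6949.9 and 6433 in the knockout, overlapping through knockout 2 and wild type 4, with a fold change of 0.52 ± 0.18 (SE; adjusted p = 0.223). Its second probe set stood at 0.54. Gstp1, the pi-class enzyme, read 13036, 15087, 17786 and 12918 in wild type against 27139.6, 20043, 17664 and 16051 in the knockout, with a fold change of 0.44 ± 0.17 (SE; adjusted p = 0.266). Of the 2 pi genes on the array the second, Gstp3, had the opposite sign, at -0.28 ± 0.23 (SE; adjusted p = 0.619), and read 2655, 4135, 4367 and 2118 in wild type against 2404, 3127, 2560 and 2438 in the knockout. Wild type 4 was its lowest array, and both groups overlapped. Gstz1, which isomerises maleylacetoacetate in tyrosine breakdown, read 5224, 5241, 4635 and 4681 in wild type against 3396, 4158, 4659 and 4720 in the knockout, a fold change of -0.23 ± 0.13 (SE; adjusted p = 0.456). Gsto2 was not tested, at 48.6 or below on every array.

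In the alpha class, which reduces lipid hydroperoxides and conjugates their aldehyde products, all 3 genes were tested, their groups overlapped, and fold changes ran from -0.03 to 0.15. Gsta3 read 4634, 5981, 4942 and 3682 in wild type against 5891, 6969, 3826 and 4079 in the knockout, and its fold change was 0.09 ± 0.21 (SE; adjusted p = 0.891). Its dimmer probe set stood at -0.43 ± 0.25 (SE), so its sign rests on the choice of probe set. Gsta4, known for the lipid aldehyde hydroxynonenal, read 605, 813, 861 and 567 in wild type against 839, 836, 682 and 779 in the knockout, with a fold change of 0.15 ± 0.17 (SE; adjusted p = 0.719). Gsta2 read 302, 207, 328 and 221 in wild type against 355, 258, 211 and 214 in the knockout, at -0.03 ± 0.23 (SE; adjusted p = 0.968), and stood above 0 after quantile normalization (0.0466) or median centring (0.0508). A further probe set that the annotation pairs with Gsta1, Gsta2 and Gm3776 together was at 253 or below on every array and not tested.

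The 3 microsomal transferases are membrane proteins unrelated in fold to the soluble classes, and 2 of them had lower knockout signals. Mgst1, the abundant liver form, read 18557, 19149, 22014 and 21479 in wild type against 22696, 20249, 21409 and 19561 in the knockout, with a fold change of 0.05 ± 0.09 (SE; adjusted p = 0.849) that was -0.0243 after quantile normalization. Mgst2, which can also make a leukotriene, read 860, 640.4, 479 and 624 in wild type against 274, 386, 405 and 426 in the knockout. All knockout arrays lay below all wild-type arrays, at means of 651 ± 157 against 372 ± 67.7 (SD, n = 4 each) and a fold change of -0.77 ± 0.20 (SE; adjusted p = 0.125). Mgst3, a glutathione peroxidase of the same family, read 4643, 4060.1, 4259.8 and 2790.3 in wild type against 1240.2, 1923, 2726 and 3507 in the knockout. Its groups overlapped through knockout 4 and wild type 4, and its fold change was -0.82 ± 0.29 (SE; adjusted p = 0.236). Both differences were larger in the first array set, -1.15 and -0.39 for Mgst2 and -1.48 and -0.16 for Mgst3, and both were largest on knockout 1. Of 6 erythroid markers tested 0 had a fold change above 0, with median differences of -0.48 and 0.17 in these sets. Their median was -0.11, and 0 of the 6 had an unadjusted p under 0.05 (limma), beside 14.4% of all tested probe sets. Other marker lists also had medians below 0, among them granulocyte (-0.22), stellate cell and fibroblast (-0.27) and intestine (-1.39, from 1 tested gene, Fabp2). Pancreas markers varied between arrays, summing to 937.5 to 2132.8 in wild type and 859.5 to 4446.3 in the knockout. Medians above 0 included those of hepatocyte (0.11) and Kupffer cell and macrophage markers (0.16). The part of any cell type in the result was not tested.

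**Figure D3:**
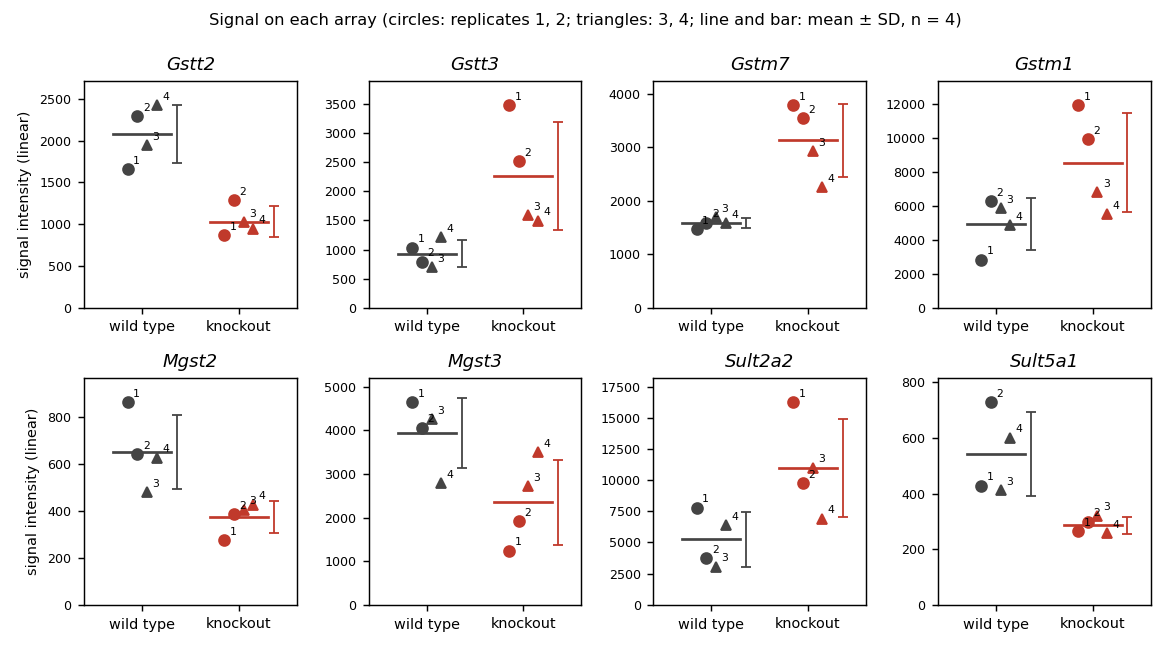
Signal intensity (linear axis from 0) on each array for 8 genes, wild type in grey and knockout in red, with replicate numbers beside the points and the mean ± SD of 4 arrays. Knockout and wild type do not overlap for Gstt2, Gstt3, Gstm7, Mgst2 and Sult5a1, and they overlap for Gstm1, Mgst3 and Sult2a2.

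Among the 6 tested Ugt genes the median size of a fold change was 0.17, beside 0.19 for all tested probe sets. In their brightest probe sets 0 of the 6 were called (limma), beside 0.299% of all tested probe sets. An unadjusted p under 0.05 was reached by 0, beside 14.4%, and with 6 genes both counts are near these shares. The Ugt2b enzymes, which glucuronidate steroids, bile acids and drugs, stood between -0.29 and 0.14. Ugt2b34 read 7416, 9131, 9255 and 10975 in wild type against 6127, 7620.3, 7859.9 and 8288 in the knockout, with a fold change of -0.29 ± 0.14 (SE; adjusted p = 0.383). Its other probe set stood at -0.42 ± 0.14 (SE), with an unadjusted p of 0.0118 and an adjusted p of 0.206 (limma). Ugt2b5 read 5707, 6191, 6905 and 6328 in wild type against 6614, 8002, 6951 and 6212 in the knockout, at 0.14 ± 0.12 (SE; adjusted p = 0.627). Ugt2b35 read 2410.5, 3583, 3536 and 3989 in wild type against 3308, 3746, 1977 and 2785 in the knockout, at -0.21 ± 0.22 (SE; adjusted p = 0.709), and its sign differed between the sets (0.26 and -0.67). The other 2, Ugt2b1 and Ugt2b36, stood at 0.0027 and -0.03. Ugt3a2, of a family that transfers sugars other than glucuronic acid, read 377, 559.5, 921 and 717 in wild type against 1059, 741, 778 and 759 in the knockout, with a fold change of 0.42 ± 0.25 (SE; adjusted p = 0.47); its difference was 0.92 and -0.08 in the sets. The other 4 genes did not reach the signal minimum on 4 arrays: Ugt2a3, Ugt3a1, Ugt2b37 and Ugt2b38, with highest signals of 246 for Ugt2a3, 201 for Ugt3a1, 36.6 for Ugt2b37 and 81.8 for Ugt2b38. The Ugt1a enzymes, which include the bilirubin-conjugating Ugt1a1, share their last exons, and the annotation pairs 3 probe sets with 8 of them at once, so they fall outside the rule and no single gene is named. The brightest of the 3 read 13969.6, 18171, 19125 and 21938 in wild type against 25093, 18061, 20012 and 18072 in the knockout, with overlapping groups and a fold change of 0.16 ± 0.15 (SE; limma adjusted p = 0.688), and the other 2 stood at 0.15 and 0.33.

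Of the 13 sulfotransferase genes 6 were tested and 0 called, with 2 higher and 1 lower at an unadjusted p under 0.05 (limma), beside 7.12% and 7.32% of all tested probe sets. Sult2a2, a hydroxysteroid and bile acid sulfotransferase, read 7781, 3762, 3058 and 6363 in wild type against 16232, 9749.6, 10986 and 6896 in the knockout. Wild type 1 lay above knockout 4, so the groups overlapped, and the means were 5241 ± 2211 against 10966 ± 3906 (SD, n = 4 each), 2.09 times as high in the knockout. The fold change was 1.10 ± 0.32 (SE; adjusted p = 0.162), alike in both sets (1.21 and 0.98). Sult2a2 has close paralogs on chromosome 7, whose transcripts its probes may share, and some genes of this subfamily are female-predominant in adult mouse liver. Without wild type 4, which carried the female signal, its fold change was 1.22 (limma adjusted p = 0.203). Sult2a8, of the same subfamily, had the opposite sign, reading 1155, 1041, 881 and 599.8 in wild type against 610.2, 635, 713 and 822 in the knockout, a fold change of -0.36 ± 0.20 (SE; adjusted p = 0.447). Its lowest wild-type array was wild type 4, and without that array its fold change was -0.55 (limma adjusted p = 0.233). Sult5a1 read 429, 728, 412 and 601 in wild type against 265, 299, 321 and 258 in the knockout, with all knockout arrays below wild type, close together, and a fold change of -0.85 ± 0.20 (SE; adjusted p = 0.0988), -0.95 and -0.76 in the sets.

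Among the Sult1 genes, Sult1d1, which sulfates catechols and other phenols, read 5607, 3032, 3124 and 3146 in wild type against 7698, 4457, 5382 and 4099 in the knockout. Wild type 1 stood apart from the other wild-type arrays and within the knockout range, and the fold change was 0.54 ± 0.24 (SE; adjusted p = 0.338), with 0.59 for the second probe set. Sult1a1, the main phenol sulfotransferase of liver, read 9471, 9902, 7875 and 9124 in wild type against 11264, 8743, 11020 and 9169 in the knockout, at 0.14 ± 0.12 (SE; adjusted p = 0.646). Sult1c2 read 748, 888, 518 and 287 in wild type against 326, 591, 331 and 446 in the knockout, with wide spread in wild type and a fold change of -0.44 ± 0.32 (SE; adjusted p = 0.582). Sult1b1, which acts on thyroid hormone, was below the minimum on 6 arrays and not tested: it read 306, 185, 238 and 141 in wild type against 81.5, 87.6, 152 and 125 in the knockout, and the groups overlapped by wild type 4 and knockout 3. The estrogen sulfotransferase Sult1e1 exceeded 200 on knockout 1 only (240.5, with 58.9 or less on the other 7 arrays), and Sult3a1 on wild type 3, knockout 2 and knockout 4 (372, 784 and 313). Sult1c1, Sult2b1, Sult4a1 and Sult6b1 were at 108 or below on every array.

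The size of the differences depended on the arrays. Knockout 1 was the most extreme knockout array in the gene's own direction for 23 of the 33 tested genes (69.7%, beside 46.5% of all tested probe sets), and knockout 4 the least extreme for 17 (51.5%, beside 40.1%). The difference was larger in the first array set than in the second for 23 of the 33 (69.7%, beside 64.05%), and 20 of the 33 had the same sign in both (60.6%, beside 58.3%). An interaction term for genotype and array set in limma called 0 of the 33 (beside 0.00981% of all tested probe sets), and 10 had an unadjusted p under 0.05 (30.3%, beside 9.92% of all tested probe sets and 9.74% of the brightest). The smallest of these p-values was that of Mgst3 (interaction adjusted p = 0.484). Gstt2, Sult5a1 and Sult2a2 differed by similar amounts in both sets, and Gstm1, Mgst3 and Ugt3a2 mainly in the first. Knockout 1 and 2, which form the first set's knockout, are the arrays with the highest pyruvate carboxylase ratios. Hepatocyte markers also differed between the sets, with median differences of 0.37 and -0.08, and the part of either in these values was not tested. With the array set as a factor, 1 member was higher (Gstm7) and 1 lower (Gstt2, limma adjusted p = 0.0395), 6.06% of the 33 beside 0.902% of all tested probe sets (0.505% higher and 0.397% lower).

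**Figure D4:**
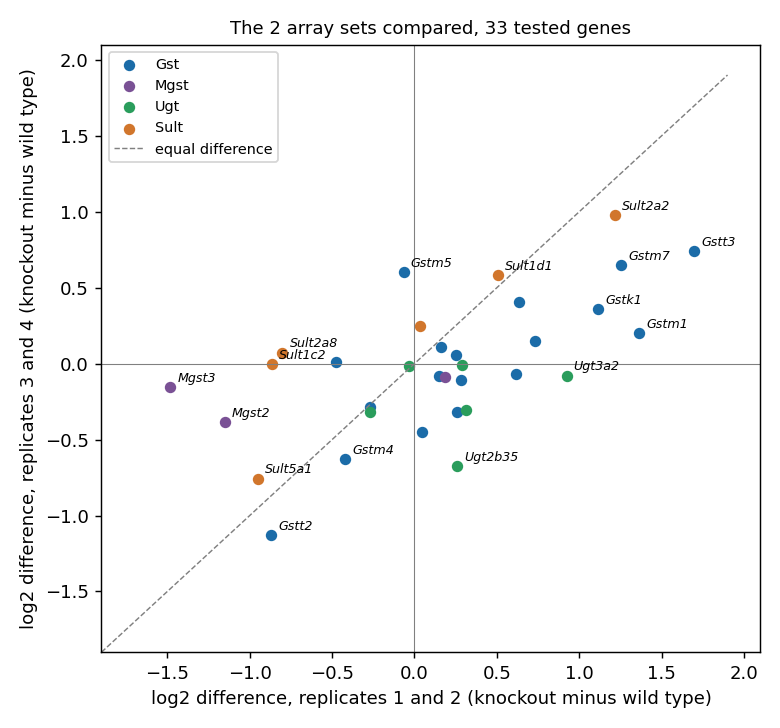
Log2 difference between knockout and wild type in the second array set (replicates 3 and 4, vertical) against the first (replicates 1 and 2, horizontal) for the 33 tested genes, coloured by family, with a dashed line where both are equal. Gstm1 (1.36 and 0.20) and Mgst3 (-1.48 and -0.16) lie far from the line, and Gstt2 (-0.87 and -1.13) and Sult2a2 (1.21 and 0.98) near it.

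Other genes of conjugation were followed in 6 lists: 94 of 103 listed genes had a probe set, 76 were tested, and limma called 0 of them, with 16 higher and 4 lower at an unadjusted p under 0.05, beside 7.12% higher and 7.32% lower of all tested probe sets. Glutathione synthesis and turnover held the most of these, 5 higher and 1 lower of 14 tested, at a median of 0.18. Cth and Cbs, which turn homocysteine into cysteine for glutathione, stood at 1.02 ± 0.22 (SE; adjusted p = 0.0826) and 0.77 ± 0.17 (SE; adjusted p = 0.0839). For Cth the means were 9057 ± 2282 against 18168 ± 4057 (SD, n = 4 each), and the groups of neither gene overlapped. Oplah, which recycles oxoproline to glutamate, stood at 1.07 ± 0.26 (SE; adjusted p = 0.107). The synthesis enzymes themselves stood near 0 (Gclc 0.09, Gss 0.11 and the brighter probe set of Gclm -0.12), while the other probe set of Gclm was called lower (-1.20; limma adjusted p = 0.0252), a call lost without wild type 4 (0.0552) and at up to 0.122 with 1 array left out. These and Gsr (0.05), which regenerates glutathione, were named after their values were seen.

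Of 7 genes that supply UDP-glucuronic acid or hydrolyse glucuronides, 3 were higher at an unadjusted p under 0.05 (beside 7.12% of all tested probe sets), at a median of 0.41: the phosphoglucomutase Pgm1 (0.61 ± 0.16 (SE; adjusted p = 0.124)), the glucuronidase Gusb (0.46 ± 0.17 (SE; adjusted p = 0.257)) and the UDP-glucose synthase Ugp2 (0.46 ± 0.19 (SE; adjusted p = 0.297)). For sulfation 0 of 11 reached that p in limma (beside 14.4% of all tested probe sets), at a median of -0.03. There the cysteine dioxygenase Cdo1 stood at 0.33 ± 0.16 (SE; adjusted p = 0.379), the sulfate transporter Slc26a1 at -0.69 ± 0.36 (SE; adjusted p = 0.421) and the sulfite oxidase Suox at -0.20 ± 0.14 (SE; adjusted p = 0.56). The PAPS synthases, chosen with their values in view, were at -0.05 for Papss1 and 0.08 for Papss2. Among 13 other conjugating and hydrolysing enzymes, 3 were higher and 2 lower at an unadjusted p under 0.05 (beside 7.12% and 7.32% of all tested probe sets). Inmt, a methyltransferase, stood at 847 ± 379 against 246 ± 156 (SD, n = 4 each), a fold change of -1.79 ± 0.39 (SE; adjusted p = 0.0839), and its groups did not overlap. Gstcd, a gene with a transferase-like domain outside the rule, stood at -0.77 ± 0.18 (SE; adjusted p = 0.0988), and the bile acyl-CoA synthetase Slc27a5 at 0.54 ± 0.19 (SE; adjusted p = 0.23).

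Of 11 transporters of conjugates and bile acids 1 was higher at an unadjusted p under 0.05 (beside 7.12% of all tested probe sets). It was the phospholipid exporter Abcb4 (0.35 ± 0.14 (SE; adjusted p = 0.29)). The conjugate exporter Abcc2 followed at 0.93 ± 0.53 (SE; adjusted p = 0.454), with differences of 2.08 and -0.21 in the first and second array set. The drug exporter Abcb1a stood at -0.41 ± 0.25 (SE; adjusted p = 0.495), and the list's median was -0.03. Of 20 regulators limma called 0, and 4 were higher and 1 lower at an unadjusted p under 0.05 (beside 7.12% and 7.32% of all tested probe sets), at a median of 0.14. The retinoid X receptor Rxra, partner of PXR and CAR, stood at 0.66 ± 0.21 (SE; adjusted p = 0.185), the hepatocyte factor Hnf4a at 0.73 ± 0.27 (SE; adjusted p = 0.251) and Keap1, which restrains NRF2, at 0.30 ± 0.12 (SE; adjusted p = 0.302). The sensors, named after their values were seen, stood on both sides of 0: Nfe2l2, which encodes NRF2, at -0.09, Ahr at -0.23, PXR (Nr1i2) at -0.30 and CAR (Nr1i3) at 0.18. Without knockout 4, limma called 5 genes of these lists higher (Oplah, Cth, Cbs, Rxra and Cebpb) and 1 lower (Inmt), and in that fit the calls among all tested probe sets also grew, to 211 higher (1.03%) and 123 lower (0.603%).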

How the data were processed

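RNA of each liver was measured on its own Affymetrix mouse expression array. The deposited values are signal intensities made by the authors with GCOS 1.2, scaled to a target signal of 500, per the labels. A trimmed mean of each array lay at that target. No further scaling was applied. Of 45101 deposited probe sets, 64 are controls. GEO's platform annotation pairs 34945 with 1 gene, 932 with several and 9160 with none, and no gene was named from those with several. Symbols were matched to RefSeq for gene order and promoters.

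Log2(signal + 16) was fitted with limma 3.58.1 in R 4.3.3 (lmFit, eBayes with an intensity trend), knockout against wild type, over probe sets at 200 or more on at least 4 arrays, with two-sided p-values and Benjamini-Hochberg adjustment over 20395 probe sets. The fit was run on simulated data with independent noise and added changes. That simulation held no array set, RNA quality or single-array effect, so it does not bear on those. Each array is 1 pup's liver. The genes and lists were chosen with earlier results of these data known. Values on every array were given for genes past the threshold and for up to 3 genes with the smallest p in each subfamily, and of each list the 3 genes with the smallest p. Array sets were read from control probe sets. Alternatives changed the pseudocount, signal minimum, scaling, trend, array set, RNA quality covariate, replicate block, probe set choice and arrays used.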

Additional observations from a re-analysis of the deposited data

Results flagged for a closer look

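In 3 of 66 groups of 4 arrays, counting both genotypes of the 33 tested genes, 1 array lay far from the other 3 by Dixon's 95% criterion, which chance meets in about 1 in 20 groups. Wild type 1 read 1767.7 for Gstm3, where the nearest wild-type array read 1320.4. The same array read 5606.8 for Sult1d1, with the nearest at 3146.5, and so stood within the knockout range of that gene. Knockout 1 read 1059.1 for Ugt3a2, and the nearest knockout array read 777.8. For all 3 the cause was not tested.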

How the results depend on the processing

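Of 593 values of the 27 genes given by array, under up to 22 alternatives each, 551 kept direction and side of the threshold, 13 lost the call (all of Gstt2), 10 gained one (Gstm7, Gstt3, Gstk1) and 19 changed sign. Gstt2 lost its call (limma adjusted p from 0.0544 to 0.208) with no signal minimum, median centring, no intensity trend, array set plus wild type 4 left out, either set alone or the pyruvate carboxylase covariate, so that 0 genes were lower in each of these. 1 gene was higher with a pseudocount of 64, a minimum of 400, quantile normalization, array set or that covariate (Gstm7), and 2 with array set and wild type 4 left out (Gstm7, Gstt3). At an unadjusted p under 0.05 it was 8 higher and 5 lower. Leaving out 1 array each gave 0 to 3 higher and 0 to 1 lower.

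Probe sets called higher and lower numbered 8 and 13 with no minimum, 63 and 48 at 400, 4 and 14 without a trend, 103 and 81 with array set, 103 and 51 with wild type 4 also left out, 0 and 2 in the second set and 1453 and 1493 unadjusted; lower ones numbered 17 after median centring and 6 in the first set. Without 1 array they were 0 to 211 and 2 to 123, the highest without knockout 4. For the pathway lists, 1 gene was higher (Cth) and 1 lower (Inmt) with array set and wild type 4 left out, 1 lower in the first set, and 0 to 5 and 0 to 1 without 1 array.

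In the first set alone the median was 0.26 for Gst, -1.15 for Mgst, 0.27 for Ugt and -0.38 for Sult, and in the second 0.03, -0.16, -0.19 and 0.16; without 1 array it was 0.07 to 0.22 for Gst. Changed signs were those of Gsta2 (0.0466 after quantile normalization, 0.0508 after median centring, 0.26 in the first set, and -0.18 to 0.0753 without 1 array, above 0 without wild type 1 or 3 or knockout 3 or 4), Mgst1 (-0.0243 after quantile normalization, -0.0875 in the second set), Gstt1 (0.0433) and Ugt2b35 (0.26) in the first set, and Gsta3 (-0.11), Gstz1 (0.0096), Sult2a8 (0.0727), Ugt2b5 (-0.0085) and Ugt3a2 (-0.0803) in the second. Gsta3 was at -0.0852 with the covariate and between -0.0701 and 0.22 without 1 array, below 0 without wild type 4 or knockout 2. Causes were not tested.

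The sample labels do not say that replicate numbers pair the arrays. Deviations from the group mean of same-numbered arrays correlated at 0.218, 0.404, 0.339 and 0.0512. Numbers 1 and 2 matched best with their own, and numbers 3 and 4 did not. Array set was not removed from these deviations, so they cannot show whether littermates were paired. With the replicate block limma called 26 probe sets higher and 30 lower, 0 and 1 of the conjugating enzyme genes, and changed no call among the 27 genes; which other probe sets changed was not compared. Protein identity between paralogs was not run. Low signal limits the 13 untested genes.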
